A study of Mus musculus with 15 samples.

Results

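The genes described here are 37 cell cycle and DNA replication genes, chosen as a named list of symbols that follows a dividing cell from growth factor entry to mitosis. They are 37 of the 24084 genes in the deposited table of corrected counts, and 36 of them had enough counts to be tested. The mitotic checkpoint kinase gene Bub1 was the member left out for low counts. Expression was measured by low-input RNA sequencing in 15 libraries of macrophages sorted as F4/80+CD45+ cells from C57BL/6J mice and used directly ex vivo. The title of the series concerns macrophages that sit on sympathetic neurons, and the libraries set them against macrophages of 4 other sites.

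SAM ganglia (3 libraries) came from sympathetic ganglia, and SAM fibers (2 libraries) from sympathetic nerve fibers dissected out of inguinal fat. sATM (2 libraries) came from the neighboring subcutaneous fat and vATM (2 libraries) from visceral fat. The labels call both of these adipose groups anti-inflammatory. SpM (3 libraries) were spleen-resident macrophages and Microglia (3 libraries) came from the brain. No genetic change or treatment is named for any group, and all titles carry the letters ND, which the labels do not spell out. Tissue from 10 mice was used. How the animals were divided over the libraries is not given, so a p-value here reflects library-to-library spread, which could be technical only. Fat, spleen and brain were digested alike, in collagenase for 30 minutes. The 2 SAM sites each had a digestion of their own, which cannot be told apart from the site. Nerve fibers had 30 minutes in hyaluronidase before 15 minutes in collagenase, and the ganglia had 10 minutes in collagenase before 30 minutes in trypsin.

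A cell enters the cycle when D-type cyclins activate the kinases CDK4 and CDK6, which release E2F transcription factors from the retinoblastoma protein. E2F factors then switch on genes for cyclin E, the MCM helicase, DNA polymerase cofactors and nucleotide synthesis, and CDK inhibitors such as p21 hold the process back. Cyclin A, cyclin B and CDK1 drive the later steps, in which Aurora and Polo-like kinases, kinetochore proteins and motor proteins separate the chromosomes. Tissue-resident macrophages are known to maintain themselves in part by dividing locally, and D cyclins and p21 also have roles in macrophages that are not dividing.

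Promoters of 2 replication genes and 2 mitosis genes called higher in fat macrophages below are shown because these 2 classes carried different letters upstream. RefSeq windows on GRCm38.p6, from 250 bases before to 50 bases after each start, were matched by symbol for 31 of the 37 members (35 windows). No window was matched for Ccnd1, Ccnd2, Ccna2, Mcm4, Aurkb or Tpx2. Capitals mark 3 motifs searched on both strands. They are the CCAAT box (CCAAT, or ATTGG on the other strand), the cell cycle homology region or CHR (TTTGAA or TTCAAA), and E2F-type letters (TTCCCGC or, as variants, TTCGCGC and also TTGCCGC and lastly TTGGCGC, with their reverse complements). Matches to the E2F-type letters can overlap each other, as in Mcm5 and Mcm6.
Mcm5 promoter, chr8:75109259-75109558, plus strand: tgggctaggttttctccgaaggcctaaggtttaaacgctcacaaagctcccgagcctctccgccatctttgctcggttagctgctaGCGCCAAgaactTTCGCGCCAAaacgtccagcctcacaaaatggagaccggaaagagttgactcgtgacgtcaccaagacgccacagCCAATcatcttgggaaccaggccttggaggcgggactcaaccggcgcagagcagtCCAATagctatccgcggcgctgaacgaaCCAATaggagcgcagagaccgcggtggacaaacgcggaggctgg
Mcm6 promoter, chr1:128359656-128359955, minus strand: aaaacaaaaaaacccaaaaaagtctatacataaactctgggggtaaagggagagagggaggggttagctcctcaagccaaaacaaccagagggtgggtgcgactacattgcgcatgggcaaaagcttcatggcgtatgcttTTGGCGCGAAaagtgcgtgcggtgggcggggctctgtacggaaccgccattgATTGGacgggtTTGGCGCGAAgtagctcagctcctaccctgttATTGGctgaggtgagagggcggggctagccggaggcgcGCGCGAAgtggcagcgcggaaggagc
Ccnb2 promoter, chr9:70421505-70421804, minus strand: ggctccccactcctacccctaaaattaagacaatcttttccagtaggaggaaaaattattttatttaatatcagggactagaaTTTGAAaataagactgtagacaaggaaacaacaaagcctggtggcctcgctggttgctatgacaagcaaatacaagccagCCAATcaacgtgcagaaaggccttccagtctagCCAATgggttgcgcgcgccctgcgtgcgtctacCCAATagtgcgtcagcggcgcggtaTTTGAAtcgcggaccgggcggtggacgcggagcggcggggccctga
Mki67 promoter, chr7:135716330-135716629, minus strand: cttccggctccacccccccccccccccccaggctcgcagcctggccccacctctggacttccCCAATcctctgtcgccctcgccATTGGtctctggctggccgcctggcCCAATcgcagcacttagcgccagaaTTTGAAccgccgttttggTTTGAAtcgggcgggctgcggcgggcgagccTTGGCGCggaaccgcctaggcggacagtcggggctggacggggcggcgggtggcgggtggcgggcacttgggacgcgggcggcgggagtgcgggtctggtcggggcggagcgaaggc

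The Mcm5 window held 3 E2F-type matches, 3 CCAAT boxes and no CHR, and the Mcm6 window 5, 2 and none. The Ccnb2 window held no E2F-type match, 3 CCAAT boxes and 2 CHR, and the Mki67 window 1, 3 and 2. Of 10 windows of the replication members, 9 held a CCAAT box, 7 an E2F-type match and 1 a CHR. Among 14 windows of the mitosis members, 13 held a CCAAT box, 10 a CHR and 3 an E2F-type match. In 11 windows of the genes that act in G1, CCAAT boxes were in 3, an E2F-type match in 1 and a CHR in 0. Over all 32851 windows, 37.4% held a CCAAT box, 17.9% a CHR, 9.57% an E2F-type match, and 6.95% both a CCAAT box and a CHR, against 71.4%, 31.4%, 31.4% and 31.4% of the member windows. These are letter matches and not measured binding sites.

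Libraries held 2.55 to 12.5 M corrected counts (median 5.93 M), of which 46.1 to 71.5% fell on 3 genes that collect ribosomal RNA or similar abundant reads (Rn45s, Lars2, Mir6236). Levels are given as CPM (a gene's counts per 1 M counts of the library, after TMM scaling), and 3 counts in a library, the limit that a count of 0 allows, equal 0.249 to 0.897 CPM. SAM fibers 1 listed 13 members at 0 and Microglia 2 listed 11, against 0 to 5 in the others, and all 13 in SAM fibers 1 had at least 100 counts in the table made before the removal of DNA contamination. Raw counts on 1125 olfactory receptor genes, which macrophages are not expected to use, ran from 32.9 to 1233 CPM of the raw table, with the highest values in SAM fibers 1 (1233) and Microglia 2 (1085). Fat libraries had 32.9 to 312. Every group carried macrophage genes, with 8 core markers summing to 4518 CPM or more in each library. The 6 microglial markers summed to 11254 to 12622 CPM in Microglia and at most 1096 elsewhere, and the 6 red pulp markers to 8936 to 13774 CPM in SpM and at most 267 elsewhere.

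Across the 6 groups, 6 of the 36 tested members (16.7%) differed at an adjusted p below 0.05, a share below that of all genes tested, of which 22.2% did. These were Ccnd1, Ccnd2, Ccnd3, Cdkn1a, Mcm7 and Mki67. All adjusted p-values are from edgeR's quasi-likelihood test with Benjamini-Hochberg adjustment over 15289 genes. A member was called in a contrast when its adjusted p was below 0.05 and its log2 difference reached 1 or -1. The contrasts use the same 15 libraries, so they share samples and are not independent of each other.

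**Figure D1:**
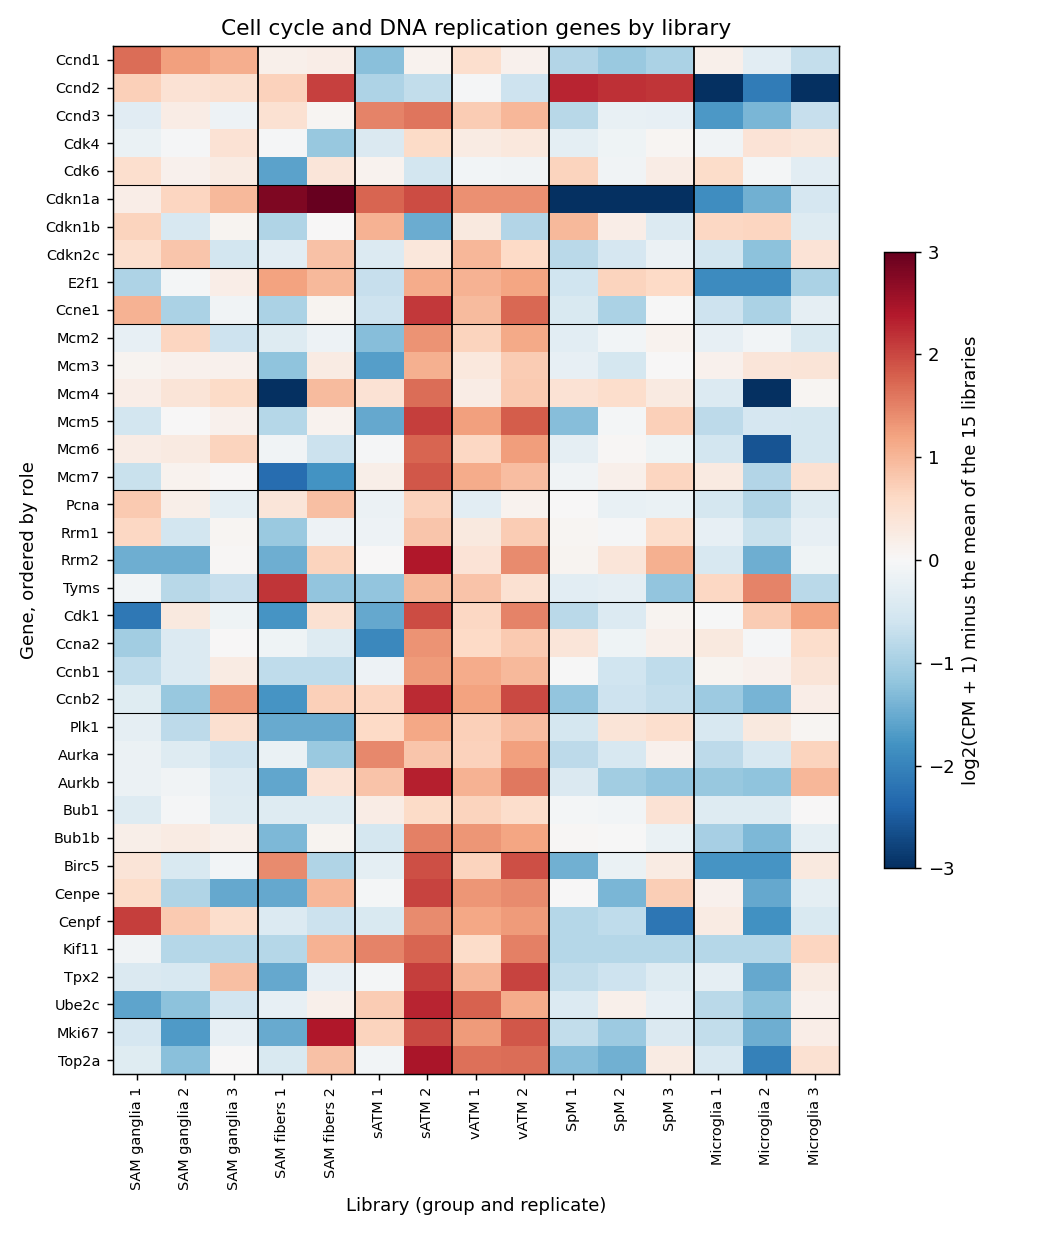
Each row is a member, ordered by role with lines between roles, and each column a library, with lines between groups. Color gives log2(CPM + 1) minus the gene's mean over the 15 libraries, from blue (lower) to red (higher), cut at 3 on either side. The column of sATM 2 is the highest of the 15 for 24 of the 36 tested members.

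The 3 D-type cyclins, which start the cycle, each had their highest level in a different site, Ccnd1 in SAM ganglia, Ccnd2 in SpM and Ccnd3 in sATM. Per unit length, on the RPKM scale (reads normalized to gene length and library size), Cdkn1a (53.7), Ccnd1 (26.6), Ccnd3 (25.9), Cdk4 (20.9) and Ccnd2 (20.4) had the highest means over the 15 libraries among the members. The replication factor Pcna followed at 12.2. All mitosis members had mean RPKM of 4.77 (Ccna2) or less.

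Ccnd1, cyclin D1 (chr7:144929931-144939925, mm10), was at 279, 206 and 187 CPM in SAM ganglia and at 96.8 and 99.5 in SAM fibers. It was at 36.2 and 93.2 CPM in sATM, 124 and 95.7 in vATM, 47.3, 39.5 and 44.6 in SpM, and 96.9, 70.2 and 52.4 in Microglia. The 3 ganglion libraries were above all others, while the ranges of SAM fibers, fat and Microglia overlapped. The 2 SAM groups together exceeded the other 4 groups (log2 fold change 1.10 ± 0.22, SE, adjusted p = 0.00352), and SpM were below the other groups (-1.23 ± 0.28, adjusted p = 0.00605). The SAM call was lost in 6 of 27 alternative settings. These were raw gene-body counts, no low-count filter, and leaving out SAM ganglia 1, sATM 1, vATM 2 or the first library of every group. The SpM call was lost in 4 of 27, with raw gene-body counts, in both fits to RPKM and without sATM 2.

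Ccnd2, cyclin D2 (chr6:127125709-127151048), stood at 306, 287 and 279 CPM in SpM and at 4.93, 13.8 and 6.23 in Microglia. Between these ends were SAM ganglia (102.7, 84.1 and 87.5 CPM), SAM fibers (101.3 and 261), sATM (32.3 and 37.0) and vATM (60.6 and 40.4). The SpM libraries were above every other library and the Microglia libraries below every other library. SpM exceeded the other groups by 2.62 ± 0.26 on the log2 scale (SE, adjusted p = 1.80e-06), and Microglia fell below them (-3.59 ± 0.38, adjusted p = 5.30e-06). The SAM groups were above the average of the other 4 groups on the log2 scale (1.52 ± 0.24, adjusted p = 6.46e-04). That average includes the low Microglia, and every SAM library was below every SpM library. In fat the gene was lower by less than the called size (-0.91 ± 0.28, adjusted p = 0.0459).

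Ccnd3, cyclin D3 (chr17:47505051-47599688), was highest in fat, at 129.6 and 141 CPM in sATM and 77.2 and 92.3 in vATM. The other 11 libraries ran from 12.98 to 62.8 CPM (median 38.0), so fat and the rest did not overlap. Fat exceeded the other 4 groups by 1.60 ± 0.21 (log2, SE, adjusted p = 6.73e-05). Microglia, at 12.98, 16.8 and 27.7 CPM, were below the other groups (-1.70 ± 0.27, adjusted p = 3.31e-04), with overlap only against SpM 1 at 25.1. Both calls were lost with raw gene-body counts and with no other of the 27 alternative settings. Before the removal of DNA contamination, the counts were 2081, 1120 and 1438 in Microglia, 2116 and 2186 in sATM, and 2282 and 2064 in vATM. After it they were 150, 60 and 182, 509 and 1226, and 645 and 751.

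The partner kinase genes did not pass in any contrast. Cdk4 lay between 11.5 and 40.01 CPM, and Cdk6 between 15.8 and 80.2 CPM, with overlapping groups in both.

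Cdkn1a encodes p21, which inhibits cyclin-dependent kinases and is induced by p53 and by stress (chr17:29090979-29100722). It was at 253 and 665 CPM in SAM fibers, 120.2 and 140.5 in sATM, 92.4 and 92.9 in vATM, and 40.9, 55.3 and 70.0 in SAM ganglia. Microglia were at 8.91, 12.3 and 24.6 CPM, and SpM at 0.915, 1.97 and 1.98. Groups next to each other in this order did not overlap. The SpM difference from the other groups was -5.75 ± 0.49 (log2, SE, adjusted p = 4.22e-07), and that of Microglia -1.84 ± 0.37 (adjusted p = 0.00215). The SAM groups were above the average of the other groups (2.77 ± 0.27, adjusted p = 4.93e-06), although SAM ganglia lay below every fat library. On the log2 scale fat was also above the average of the other groups (1.97 ± 0.27, adjusted p = 1.45e-04), which includes the low SpM and Microglia. In CPM it was not, with a mean of 111.5 in fat and 132.8 over the other 4 groups. SAM fibers lay above every fat library. Fat, SpM and Microglia, which shared 1 digestion, stood at 92.4 to 140.5, 0.915 to 1.98 and 8.91 to 24.6 CPM. For the SAM values, digestion cannot be told apart from site, and its part was not tested. The other 2 inhibitors, Cdkn1b (p27, 5.29 to 35.1 CPM) and Cdkn2c (p18, 0 to 3.71 CPM), did not pass in any contrast.

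**Figure D2:**
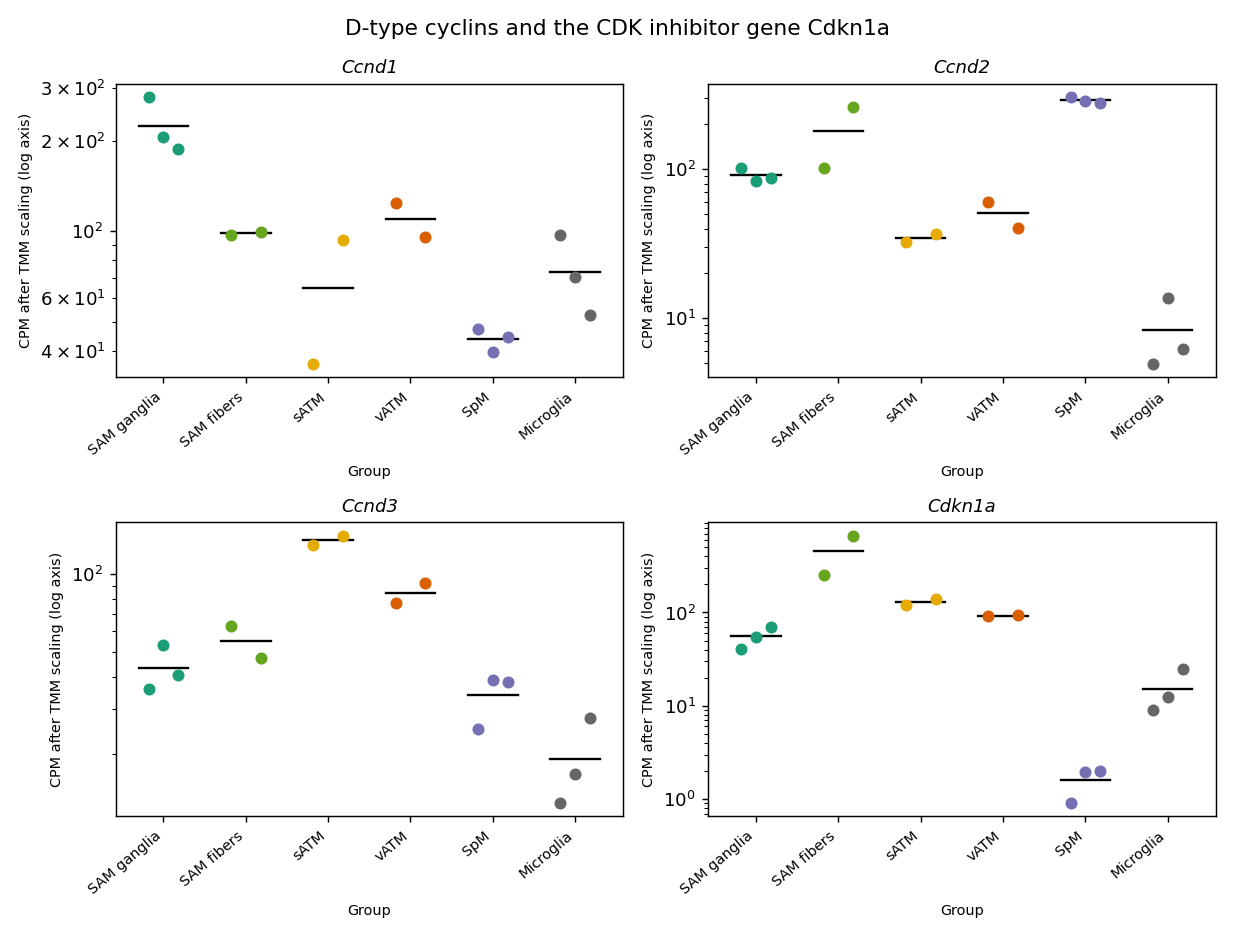
CPM of 3 D-type cyclins and Cdkn1a by group on a log axis, 1 point per library and a line at the group mean. Ccnd1 is highest in SAM ganglia, Ccnd2 in SpM, Ccnd3 in sATM and Cdkn1a in SAM fibers, while SpM lie at or below 1.98 CPM for Cdkn1a.

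In the fat macrophages, Ccnd3, Cdkn1a, 3 MCM genes and 7 genes of mitosis or proliferation were called higher. With sATM and vATM set against the other 4 groups, 12 of 36 tested members (33.3%) were called higher and 0 lower, where 5.66% of all genes tested were called higher and 2.90% lower. The median log2 difference of the members was 1.66, with 32 of 36 above 0, against a median of -0.06 with 47.5% above 0 over all genes tested. By role, the calls were 1 of 5 D-type cyclins and kinases, 1 of 3 CDK inhibitors, 0 of 2 G1/S regulators, 3 of 6 licensing genes and 0 of 4 fork and nucleotide genes. Among genes of mitosis they were 1 of 4 cyclin and CDK1 genes, 2 of 4 tested kinase and checkpoint genes, 2 of 6 kinetochore, spindle, passenger and ubiquitin ligase genes, and both proliferation markers. In bulk RNA, more dividing cells and more of these transcripts per dividing cell cannot be told apart.

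Much of this rested on 1 library. sATM 2 exceeded sATM 1 for 33 of 36 members (91.7%), where it did so for 55.5% of all genes tested. The second library was also the higher one for 26 of 36 members in vATM (72.2%, against 49.2% of all genes) and for 25 of 36 in SAM fibers (69.4%, against 50.4%). In each of the 6 groups replicate 1 had the fewest genes above 0, 12707 to 15161, against 16473 to 17388 in the other libraries. With the first library of every group left out, 17 members were called higher in fat and 1 lower (Ccnd2), with the single sATM and vATM libraries taken to vary like the rest. Without sATM 2, 2 members were called in fat (Ccnd3 and Cdkn1a), and no replication or mitosis gene was. There were 4 without vATM 2, 7 without vATM 1 and 17 without SAM fibers 2. Without both sATM libraries, 3 were called (Ccnd3, Cdkn1a and Mcm5). sATM 2 also had more counts outside the 3 abundant genes (3.55 M) than sATM 1 (1.45 M), while vATM 2 had fewer (3.21 M) than vATM 1 (3.57 M). Raw olfactory receptor counts were 312 CPM of the raw table in sATM 2 and 101 in sATM 1. They were 278 in vATM 2 and 32.9 in vATM 1. The part of depth and of DNA contamination in the differences between these libraries was not tested.

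MCM proteins form the helicase that is loaded on origins before replication, and 3 of the 6 genes were called higher in fat. Mcm5 (chr8:75109509-75128439) was at 2.80 and 45.8 CPM in sATM and 24.8 and 37.9 in vATM, while the other 11 libraries ran from 3.58 to 17.2 (median 6.74). The 2 vATM libraries and sATM 2 were above all of these and sATM 1 was below them (log2 difference for fat 1.75 ± 0.47, SE, adjusted p = 0.0248). Mcm6 (chr1:128331575-128359705) was at 14.8 and 53.6 CPM in sATM and 23.8 and 37.4 in vATM, against 1.68 to 24.9 (median 13.8) in the other 11 (1.37 ± 0.36, adjusted p = 0.0206). For Mcm7 (chr5:138164589-138171862) the values were 4.58 and 16.8 CPM in sATM, 9.58 and 8.36 in vATM, 0 and 0.416 in SAM fibers, and up to 6.69 in the other 11 (median 4.01, log2 difference 2.25 ± 0.50, adjusted p = 0.00725). Again sATM 1 lay within the range of the other sites. The Mcm5, Mcm6 and Mcm7 calls were lost in 5, 6 and 5 of 27 alternative settings. All 3 were lost with raw gene-body counts, in both fits to RPKM and without sATM 2. Mcm2, Mcm3 and Mcm4 did not pass, with fat differences of 0.97 ± 0.40, 0.48 ± 0.37 and 0.88 ± 0.66.

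At the fork, the sliding clamp gene Pcna showed no difference that passed in fat (0.07 ± 0.27, adjusted p = 0.915) and had its highest level, 28.1 CPM, in SAM fibers 2. The ribonucleotide reductase genes Rrm1 (0.67 ± 0.29) and Rrm2 (2.19 ± 0.97), and the thymidylate synthase gene Tyms (0.58 ± 1.13), did not pass. Neither did E2f1 (1.39 ± 0.71) or the cyclin E gene Ccne1 (2.82 ± 1.13). Rrm2 reached 13.5 CPM in sATM 2 and was at 6.39 or less elsewhere.

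Among the proliferation markers, Mki67 (chr7:135689788-135716379) encodes Ki-67, a protein of dividing cells that coats mitotic chromosomes. It was at 27.0 and 68.2 CPM in sATM, 41.2 and 63.0 in vATM, and 5.08 and 91.4 in SAM fibers. The median of the 11 libraries outside fat was 9.52 CPM, and all 4 fat libraries exceeded each of them but SAM fibers 2 (1.72 ± 0.48, SE, adjusted p = 0.0286). Top2a (chr11:98992947-99024189), the topoisomerase that untangles replicated DNA, was at 6.11 and 39.9 CPM in sATM, 22.6 and 23.0 in vATM, and 0.842 to 12.7 (median 4.48) elsewhere (2.14 ± 0.53, adjusted p = 0.0153). Here sATM 1 fell inside the range of the other sites and the other 3 fat libraries above it. The Mki67 call was lost in 6 of 27 alternative settings and the Top2a call in 5. Both were lost in both fits to RPKM and without sATM 2, vATM 2 or both sATM libraries, and Mki67 also without SpM 2.

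**Figure D3:**
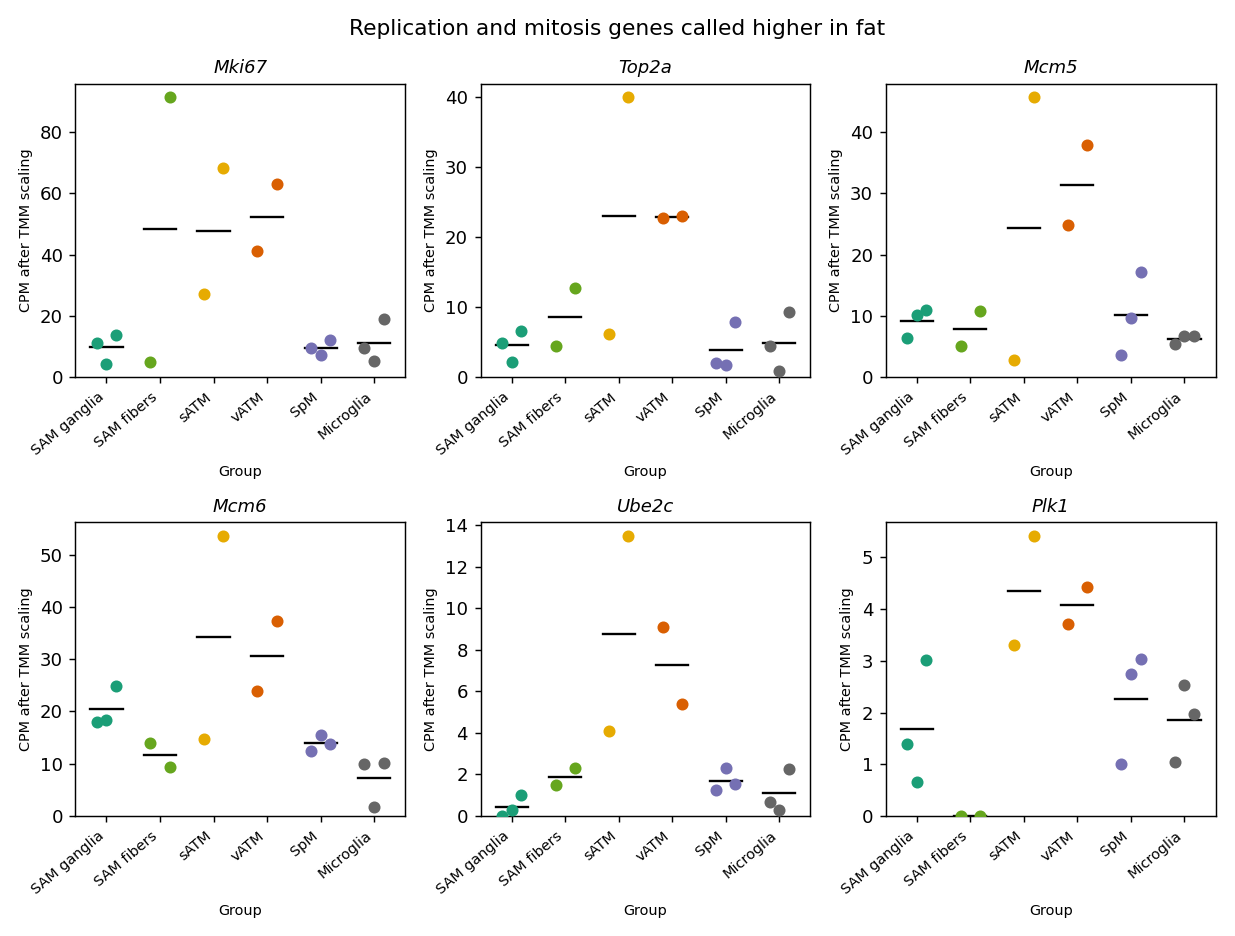
CPM of 6 members called higher in fat, by group, with 1 point per library and a line at the group mean. The sATM points lie far apart, with sATM 2 highest of the fat libraries in each panel, and Mki67 in SAM fibers 2 (91.4 CPM) is above all fat libraries.

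Of the mitotic genes, Ube2c (chr2:164769929-164772902), the ubiquitin-conjugating enzyme of the anaphase-promoting complex, was at 4.07 and 13.5 CPM in sATM and 9.10 and 5.41 in vATM. All other libraries were at 2.30 CPM or less (median 1.25), without overlap (2.83 ± 0.67, SE, adjusted p = 0.0104). Plk1 (chr7:122159435-122169884), the Polo-like kinase, was at 3.31 and 5.40 CPM in sATM and 3.71 and 4.42 in vATM, against 0 to 3.04 (median 1.39) elsewhere (2.82 ± 0.75, adjusted p = 0.0233). Counts were low, at most 25 for Plk1 and 21 for Ube2c in a library outside fat. The Plk1 call was lost in 10 of 27 alternative settings and the Ube2c call in 3. For Plk1, Ccnb1 and Kif11 1 of the groups outside fat was at 0 in all libraries, so the size of the fitted difference depends on the prior count.

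Cyclin B2, Ccnb2 (chr9:70407689-70421554), was at 4.33 and 14.9 CPM in sATM and 6.82 and 12.3 in vATM, and at 0 to 7.42 (median 1.07) elsewhere, the highest being SAM ganglia 3 (2.47 ± 0.76, adjusted p = 0.0495). Aurkb (chr11:69045637-69051664), the kinase of the chromosome passenger complex, was at 4.33 and 13.7 CPM in sATM and 5.03 and 7.87 in vATM, against 0 to 4.86, median 1.16 (2.55 ± 0.78, adjusted p = 0.0481). The spindle assembly factor Tpx2 (chr2:152847964-152895321) was at 1.78 and 11.3 CPM in sATM and 4.91 and 10.8 in vATM, against 0 to 4.41, median 1.15 (2.56 ± 0.79, adjusted p = 0.0490). These 3 calls lie next to the threshold and were each lost in 16 or 17 of 27 alternative settings. Members that did not pass included Kif11, the spindle motor gene (3.90 ± 1.25, adjusted p = 0.0659), Ccnb1 (3.31 ± 1.14, adjusted p = 0.0819) and Aurka (2.35 ± 0.88, adjusted p = 0.112). Cdk1 (1.39 ± 0.77), Ccna2 (0.72 ± 0.42), Bub1b (2.03 ± 0.83), Birc5 (1.84 ± 0.90), Cenpe (1.96, adjusted p = 0.255) and Cenpf (1.55 ± 0.65) did not pass either. Bub1, not tested, was at 0.509 to 1.08 CPM in fat and at 0 to 0.761 elsewhere.

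**Figure D4:**
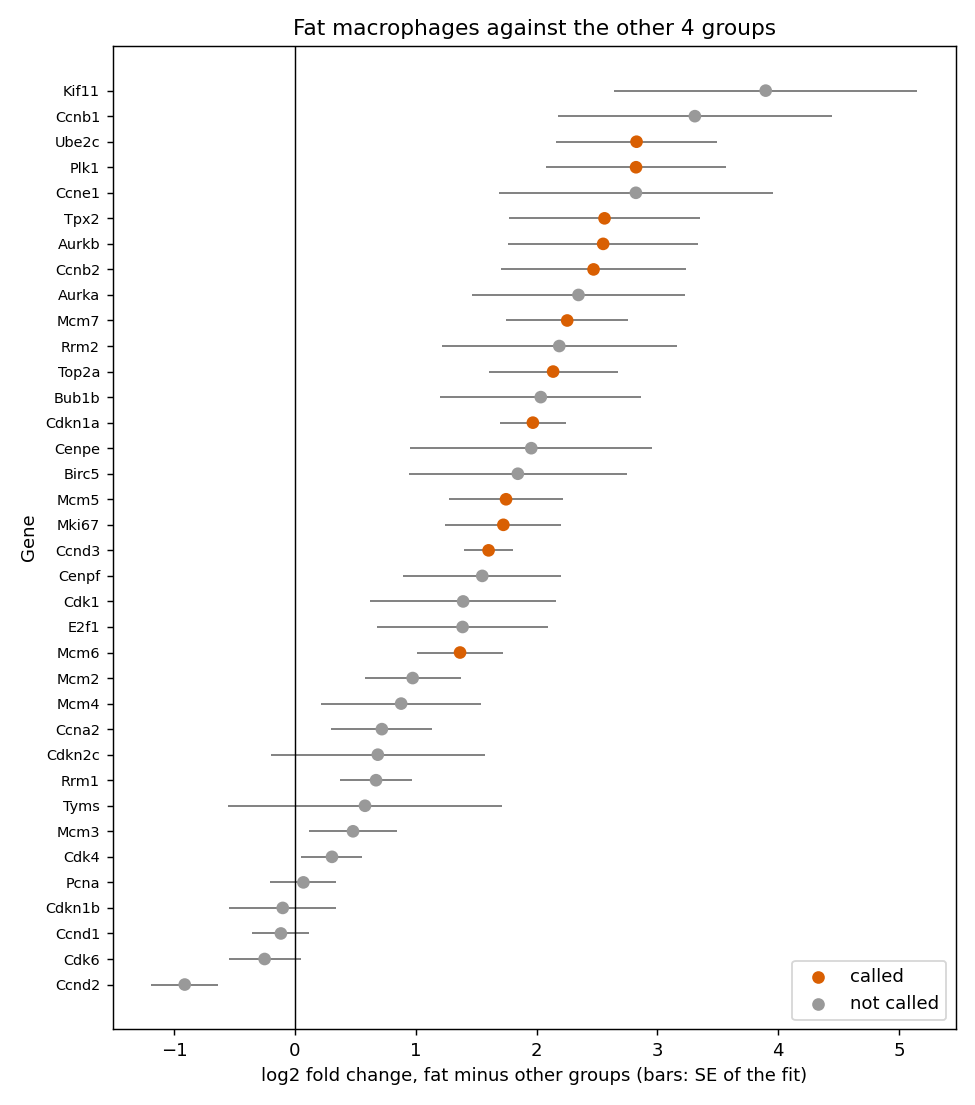
Log2 fold change of the 36 tested members in fat against the mean of the other 4 groups, with bars of 1 SE of the fit, ordered by size and colored orange where called. The 12 called members all lie to the right of 0, and Ccnd2 is the lowest.

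Summed over 10 replication genes, the level was 174 ± 149 CPM (SD, n = 2) in sATM and 175 ± 43.0 (n = 2) in vATM. It was 110.7 ± 4.30 (n = 3) in SAM ganglia, 91.3 ± 31.9 (n = 2) in SAM fibers, 99.3 ± 15.6 (n = 3) in SpM and 80.1 ± 11.3 (n = 3) in Microglia. Over 17 mitosis genes the sums were 168 ± 138 CPM in sATM, 177 ± 37.8 in vATM, 87.0 ± 76.1 in SAM fibers, 51.3 ± 14.1 in SAM ganglia, 42.8 ± 9.75 in SpM and 51.7 ± 27.8 in Microglia, with the same n. Mki67 alone averaged 48.2 CPM of the mitosis sum in SAM fibers, 47.6 in sATM, 52.1 in vATM and 9.57 to 11.3 in the other groups. In SAM fibers 2 it made up 91.4 of 140.7 CPM. In CPM, both vATM libraries were above all libraries outside fat in both sums. On the RPKM scale vATM 2 was (61.9 for replication and 55.7 for mitosis), but vATM 1 was not. It stood at 32.5 for replication, below SAM fibers 2 at 53.4 among others, and at 31.4 for mitosis, below Microglia 3 at 33.1. sATM 1 and sATM 2 stood at 69.3 and 279.7 CPM for replication and at 70.3 and 266 for mitosis, and sATM 1 was within the range of the other sites.

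**Figure D5:**
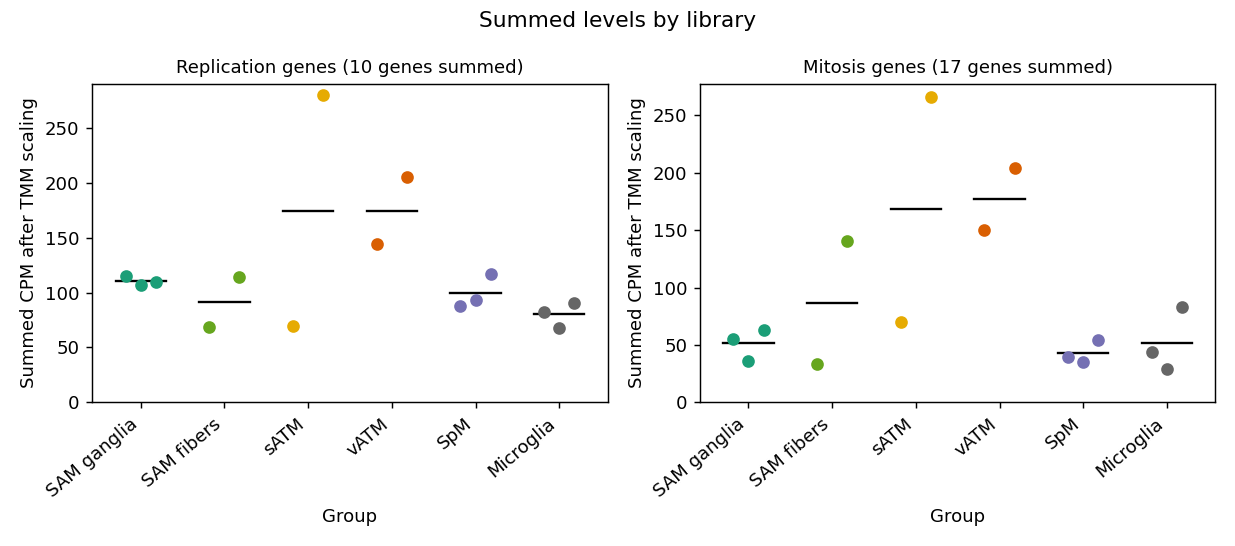
Summed CPM of the 10 replication and 17 mitosis genes, 1 point per library and a line at the group mean. sATM 2 is the highest library in both panels and sATM 1 is within the range of the other sites.

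Other genes of the same pathways were taken from lists that leave out the members. In fat, 8 of 33 tested mitosis genes were called higher and 0 lower (median log2 1.87), among them the centromeric histone gene Cenpa (1.68 ± 0.29, SE, adjusted p = 0.00108), the condensin gene Smc4 (1.72 ± 0.36, adjusted p = 0.00435) and the cytokinesis gene Racgap1 (2.37 ± 0.53, adjusted p = 0.00753). Of 23 tested replication genes 0 were called in either direction (median 0.81), and of 17 tested genes of S phase entry 1 was, the inhibitor gene Cdkn2d (1.97 ± 0.38, adjusted p = 0.00238).

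No marker list of another cell type had its highest library in fat. T cell markers summed to 3.10 to 7.38 CPM, B cell markers to 13.05 to 16.8, neutrophil and myeloid progenitor markers to 1.68 to 11.2, endothelial markers to 4.14 to 14.3 and fibroblast markers to 18.2 to 27.0. The B cell gene Pax5 was at 0 in all 4 fat libraries, but also in all SAM libraries. B cell markers there summed to 31.9 to 45.7 CPM in ganglia and 45.0 to 50.5 in fibers. Erythroid markers summed to 73.2 to 375 CPM in fat, against 1691 and 4660 in SAM fibers and 106.1 to 909 in the other groups. Sympathetic neuron markers summed to 3.44 to 57.5 CPM and Schwann cell and satellite glia markers to 53.0 to 197. Fat was not the lowest site for every list. Fibroblast markers summed to 0.0832 to 1.42 CPM in SpM, 5.62 to 8.70 in Microglia and 42.9 to 246 in SAM. Schwann cell and satellite glia markers summed to 3.49 to 10.7 CPM in SpM, 320 to 359 in Microglia and 191 to 618 in SAM. The part of other cells in the fat differences was not tested. Resident adipose macrophage markers summed to 1876 CPM in sATM 1, 6249 in sATM 2, 12216 in vATM 1 and 8520 in vATM 2. sATM 1 lay within the range of SAM ganglia (1458 to 2773) and below SAM fibers 2 (1992), and the part of this in the fat result was not tested.

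Between the 2 fat groups, sATM and vATM, 0 of 36 members were called by edgeR, DESeq2 or limma, and 0 had an unadjusted p below 0.05 in edgeR. Over all genes tested, 0.0196% were called higher and 0.0196% lower in sATM. The errors were wide. For Mki67 the difference was -0.12 ± 0.86 and for Mcm5 -0.35 ± 0.85 (log2, SE), which does not show that the groups were alike. The 3 lists of other pathway genes had 0 called as well.

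Set against the other 4 groups, SAM had 3 members called higher, the Ccnd1, Ccnd2 and Cdkn1a described above, where 5.71% of all genes were higher. They had 2 called lower, Mcm7 (adjusted p = 0.00875) and Plk1 (adjusted p = 0.0204), where 3.44% were. Both lower calls rest on SAM fibers, which had 0 and 2 counts of Mcm7 and 0 of Plk1 in both libraries, and neither was made without both fiber libraries. In SAM ganglia, Mcm7 was at 2.08, 4.25 and 4.01 CPM and Plk1 at 1.39, 0.664 and 3.01, within the range of SpM and Microglia or just below it. The median of the members was -0.34 against 0.02 for all genes. Of the other pathway genes, S phase entry had 1 of 17 higher, the inhibitor gene Cdkn1c (1.63 ± 0.50, adjusted p = 0.0459), and 1 lower, Skp2 (adjusted p = 2.99e-04). Replication had 2 of 23 lower, Orc2 (adjusted p = 0.00305) and Tk1 (adjusted p = 0.0243), and mitosis 2 of 33 lower, Mad2l1 (adjusted p = 0.0213) and Cks1b (-2.02 ± 0.62, adjusted p = 0.0471). Skp2, Tk1 and Mad2l1 were at 0 in both fiber libraries, so no fold is given for them.

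SAM fibers and the neighboring sATM differed in 4 members. Ccnd2 (2.38 ± 0.47, SE, adjusted p = 0.00947) and Cdkn1a (1.82 ± 0.50, adjusted p = 0.0498) were higher in fibers, where 1.85% of all genes were. Plk1, with 0 counts in 2 fiber libraries and 60 in 2 sATM libraries, was at least 12.9-fold lower in fibers, with a limit of 3 counts over the group (adjusted p = 0.0330). Before the removal of DNA contamination, Plk1 had 128 and 46 gene-body counts in fibers and 13 and 80 in sATM. Mcm7, with 2 counts against 164, was called lower (adjusted p = 0.0150), and the ratio of sATM to fibers was 52.9 with a 95% counting interval of 14.4 to 440.7. Its raw gene-body counts were 156 and 115 in fibers and 34 and 329 in sATM. Both figures hold for the corrected table alone and do not include error from the removal, and neither gene was called on the raw table. Lower calls made up 2.99% of all genes. Without sATM 2 none of the 4 was called, and without sATM 1 Mcm7 alone was. Without SAM fibers 1 Plk1 and Mcm7 were lost, and the Cdkn1a call was lost in 16 of 25 alternative settings. Mki67 did not separate the groups (0.02 ± 0.86), since SAM fibers 2 exceeded both sATM libraries and SAM fibers 1 was below both. Endothelial markers summed to 5.68 and 7.91 CPM in fibers and to 14.3 and 4.14 in sATM. Markers of the other cell types outside macrophages were higher in both fiber libraries than in either sATM library. Their part in these differences was not tested. The sums were 1691 and 4660 against 159 to 375 CPM for erythroid, 272 to 700 against 21.3 to 57.5 for neuronal, 477 to 618 against 53.0 to 104.2 for Schwann cell and satellite glia, 167 to 246 against 19.4 to 26.8 for fibroblast, and 98.0 to 120.3 against 9.93 to 11.2 for neutrophil and myeloid progenitor markers. Of the other pathway lists, 1 gene each was called lower in fibers, Skp2 (adjusted p = 0.00824), Orc2 (adjusted p = 0.00432) and Mad2l1 (adjusted p = 0.0459).

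Between the 2 SAM sites, Cdkn1a was the single member called, lower in ganglia than in fibers (-3.05 ± 0.45, SE, adjusted p = 0.00166), where 1.27% of all genes were lower and 2.85% higher. All 3 ganglion libraries were below both fiber libraries. Marker sums of some other cells were lower in ganglia too. They were at 665 to 909 CPM for erythroid, 98.4 to 136 for neuronal, 42.9 to 53.3 for fibroblast and 191 to 222 for Schwann cell and satellite glia markers. Sums of B cell, T cell and endothelial markers overlapped between the sites. The part of other cells was not tested. The median of the members was 0.27, or 0.19 with Ccnb1 and Plk1 at the limit set by their 0 counts in fibers, against 0.0026 for all genes. Other pathway genes called were Skp2 (adjusted p = 0.0269) and Orc2 (adjusted p = 0.00146), higher in ganglia, and Cks1b (adjusted p = 0.0406), lower. Their means were at 0 or near it on the low side (0 CPM of Skp2 and 0.208 of Orc2 in fibers, 0.333 of Cks1b in ganglia), so no fold is given.

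The members called in SpM were Ccnd2, Ccnd1 and Cdkn1a, with the values given above. Of these, 1 was higher, where 6.72% of all genes were, and 2 lower, where 5.72% were. The median of the members was -0.48, against -0.03 for all genes. No replication or mitosis member passed. B cell markers summed to 77.1 to 107.1 CPM in SpM and at most 50.5 elsewhere, endothelial markers to 46.3 to 65.7 and at most 14.3 elsewhere, and T cell markers to 18.5 to 28.4, and their part in these differences was not tested. Of the other pathway genes, Skp2, which marks p27 for destruction, was at a mean of 44.7 CPM in SpM and at most 4.82 in the other groups (5.14 ± 0.45, SE, adjusted p = 9.46e-07). Skp2 and Tk1 were at 0 in SAM fibers, on which the size of their fitted difference depends in part. The inhibitor genes Cdkn2d (-2.58 ± 0.54, adjusted p = 0.00330) and Cdkn1c (-2.64 ± 0.73, adjusted p = 0.0209) were lower. The thymidine kinase gene Tk1 (4.04 ± 1.05, adjusted p = 0.0157) and the polymerase gene Pola1 (1.07 ± 0.33, adjusted p = 0.0390) were higher, and Cenpa was lower (-1.24 ± 0.38, adjusted p = 0.0382).

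Microglia had 5 members called lower, where 6.47% of all genes were, and 0 higher, where 7.26% were. Beside Ccnd2, Ccnd3 and Cdkn1a these were E2f1 and Mcm6. E2f1 (chr2:154559400-154569892), the transcription factor of S phase genes, was at 0, 0 and 0.912 CPM in Microglia, 0.923, 2.52 and 3.21 in SAM ganglia, 7.47 and 6.25 in SAM fibers, 1.27 and 6.90 in sATM, 6.58 and 7.37 in vATM and 1.41, 4.81 and 4.56 in SpM. All Microglia libraries were below all others (-3.75 ± 1.13, adjusted p = 0.0322), at counts near 0. Mcm6 was at 10.0, 1.68 and 10.2 CPM (-1.44 ± 0.47, adjusted p = 0.0476). Both calls were lost with raw gene-body counts, without Microglia 2, and without Microglia 1, sATM 2, SpM 2 or either vATM library. Before the removal of DNA contamination, the Microglia libraries had 8, 83 and 54 gene-body counts of E2f1, against 0, 0 and 6 after it. For Mcm6 they had 187, 179 and 249 before and 116, 6 and 67 after. E2f1 was lost in 8 of 27 alternative settings and Mcm6 in 18 of 27. The median of the members was -0.85, while that of all genes was 0.29. Of other genes, E2f3 (2.06 ± 0.46, adjusted p = 0.00502) and the origin recognition gene Orc2 (1.37 ± 0.37, adjusted p = 0.0167) were higher, and Cenpa (-1.74 ± 0.40, adjusted p = 0.00584), Smc4 (-1.83 ± 0.48, adjusted p = 0.0148) and Pola1 (-1.21 ± 0.39, adjusted p = 0.0450) were lower.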

How the data were processed

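The authors deposited 3 tables for the 15 libraries: raw counts over whole gene bodies, estimated counts after the removal of DNA contamination, and RPKM after the same removal, per the file headers and table titles. The submitters' processing notes name STAR, HOMER and the build mm10, with versions and the removal method not given in the sources used here. Because 45.3% of the corrected values are whole and the rest fractional, they were rounded before testing. Fits used R 4.3.3 and edgeR 4.0.16 (filterByExpr minimum count 10, TMM, 1 mean per group over all 15 libraries, quasi-likelihood F-test, Benjamini-Hochberg over 15289 genes), and were tested on simulated data. The common biological coefficient of variation was 0.680. Alternatives used DESeq2 1.42.0, limma 3.58.1 on log2(RPKM + 0.1) and log2(RPKM + 1), raw counts and others.

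Groups came from the sample titles. The members and lists were chosen with earlier results of these data known. Members called in any test were given by library, or by lowest, median and highest value over pooled sites, and up to 3 called genes per other list and contrast were named. No 2 libraries of a group agreed within sampling noise. Counting intervals and limits cover counting error only. Listed genes without a match in the corrected table (Trbc1, Ighm, Trac, Ccnh) were not used.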

Additional observations from a re-analysis of the deposited data

How the results depend on the processing

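Counts of called members moved with the libraries and tables used. Across 6 groups (6 called) DESeq2 gave 13, no low-count filter 12 and raw gene-body counts 3, and leaving out each library 4 to 13. SAM (5) gave 0 with raw counts, 3 without both fiber libraries, 3 without the first library of every group and 3 to 7 with each library left out. SpM (3) gave 5 by DESeq2, 6 without SAM fibers 1 and Microglia 2, and 2 to 4 with each left out. Microglia (5) gave 1 with raw counts, 3 without those 2 libraries and 3 to 6 with each left out. Fat (12) gave 4 with raw counts, 3 with log2(RPKM + 0.1), 5 with log2(RPKM + 1), 3 without both sATM libraries and 2 to 17 with each left out. SAM fibers against sATM (4) gave 0 with raw counts, 2 with log2(RPKM + 1) and 0 to 6 with each left out. SAM ganglia against fibers (1) gave 5 by DESeq2, 2 without the filter, 0 with raw counts, 2 with log2(RPKM + 0.1), 2 without both sATM libraries, 3 without SAM fibers 1 and Microglia 2, 3 without the first library of every group, and 1 to 4 with each left out. sATM against vATM stayed at 0 in every setting run. With raw counts, the Cdkn1a difference of fibers from sATM reversed to -0.41. The causes were not tested. Scaling by RLE moved the median of all genes from -0.06 to -0.17 in fat (where Ccnd2 was then called lower), from 0.02 to 0.19 in SAM, from 0 to 0.28 in fibers against sATM and from 0.0026 to -0.25 in ganglia against fibers. The settings without both fiber, both sATM, SAM fibers 1 and Microglia 2, or the first library of every group were added after seeing the data. Calls kept in all 27 alternatives were Cdkn1a and Ccnd2 in SpM, Ccnd2 in Microglia and Cdkn1a in fat. Whether replicate numbers pair libraries was not settled (33 same-number pairs, median r 0.0951, 16 over 0.1, against -0.0689 over 60 other pairs). Replicate 1 had the fewest genes above 0 in each of the 6 groups, so a trait shared by replicate number is possible. A replicate block gave 7, 5, 3, 4, 10, 4, 1 and 0 called members in the 8 comparisons in the order above (all groups, SAM, SpM, Microglia, fat, fibers against sATM, ganglia against fibers, sATM against vATM). Counts of mitosis members such as Plk1 and Ube2c were low outside fat (at most 25 and 21 per library), which limits the precision of their values.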
